A study of Mus musculus with 6 samples.

Results

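The insulin, growth hormone and insulin-like growth factor (IGF) axis of the liver was followed through 10 genes among the 55487 genes counted. The genes were chosen by name, with earlier results of these data known. They were the insulin receptor Insr, its adaptors Irs1 and Irs2, the transcription factor Foxo1, the growth hormone receptor Ghr and its feedback inhibitor Socs2, the hormone Igf1, and the carriers Igfals, Igfbp1 and Igfbp2. All 10 passed the filter on low counts, which left 14046 genes to be tested. Liver RNA was sequenced from 6 wild-type male C57BL/6J mice fed normal chow, with 1 library per mouse. Of these mice, 3 had received subcutaneous GalNAc-siRnf10, an siRNA against the ubiquitin ligase gene Rnf10, and 3 had received GalNAc-siNC, a control siRNA on the same ligand. All livers were taken at 17 weeks of age. The labels give neither the dose nor the hour of collection of each mouse. GalNAc is a sugar ligand that is taken up through the asialoglycoprotein receptor of hepatocytes, whereas the RNA came from whole liver and so from every cell type in it. Rnf10 was targeted by 1 siRNA sequence, so that an effect of lowering Rnf10 and any other effect of that sequence cannot be told apart.

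The libraries held 28430868 to 33058645 counts in the GalNAc-siNC group and 26854377 to 31621131 counts in the GalNAc-siRnf10 group, and all carried the same batch label. At this depth 3 counts, the smallest number taken as detection, were between 9.07e-06% and 1.12e-05% of a library, a limit that covers counting error only. Rnf10 itself fell by 1.22 on the log2 scale, and its normalized counts were 3869, 4536 and 4040.2 in the GalNAc-siNC mice and 1738, 1820.5 and 1793 in the GalNAc-siRnf10 mice (adjusted p = 3.29e-09, edgeR). GalNAc-siNC mouse 1 stood apart from the other controls. The chi-square statistic per gene between its counts and those of the other controls was 30.7 and 30, against 10.3 between the other controls and 4.7 to 5.37 among the GalNAc-siRnf10 mice. Values without this mouse are given for several of the results whose call or size depended on it. Albumin, the main secreted hepatocyte protein, took 3.72% to 4.36% of all counts in the controls and 5.93% to 6.08% after GalNAc-siRnf10, and 3 of 6 hepatocyte markers (Alb, Ttr and Cyp2e1) were higher. Apoa1, Hnf4a and Asgr1 were not called, with log2 differences of 0.08, 0.08 and 0.11. The summed normalized count of the 6 markers was 1606661 to 1706026 in the controls and 2371944 to 2456364 after GalNAc-siRnf10. Most of this sum was Alb, with means of 1159043 and 1805569. Whether this shift in RNA makeup has a part in the results was not tested.

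As background, insulin binds its receptor on hepatocytes, the receptor phosphorylates the adaptors IRS1 and IRS2, and the kinase AKT then keeps FOXO1 out of the nucleus. FOXO1 in the nucleus raises transcription of Igfbp1, Irs2 and gluconeogenic genes. Growth hormone acts through GHR, the kinase JAK2 and the transcription factor STAT5, which drives Igf1, Igfals, Socs2 and Cish, and the liver supplies most circulating IGF1. In blood IGF1 travels with binding proteins, of which IGFBP3 forms a long-lived complex with the acid-labile subunit encoded by Igfals, while IGFBP1 and IGFBP2 form smaller complexes.

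The 250 bases before the RefSeq start sites (GRCm38.p6) were searched on both strands for CAAAACA, the core of the insulin response sequence bound by FOXO proteins, for GTAAACA, a general forkhead motif, and for TTCNNNGAA, the STAT5 motif. No matches in the members shared bases. CAAAACA was present in the windows of Igfbp1, Irs1 and Irs2, and in 5.56% of 32817 promoters of the same length. The windows are shown because Igfbp1 had the largest change and Irs2 is a textbook FOXO1 target, with the motif in capitals and each sequence written 5′ to 3′ on the strand of its gene. The Igfbp1 window, chr11:7197537-7197786 on the forward strand, held 1 copy that began 108 bases before the start site. Irs1 had 2 copies on the opposite strand, 111 and 32 bases before its start, shown within chr1:82291519-82291575 and chr1:82291440-82291496 of the reverse strand. Irs2 had 1 copy on the opposite strand, 37 bases before its start, shown within chr8:11008935-11008991 of the reverse strand.
Igfbp1: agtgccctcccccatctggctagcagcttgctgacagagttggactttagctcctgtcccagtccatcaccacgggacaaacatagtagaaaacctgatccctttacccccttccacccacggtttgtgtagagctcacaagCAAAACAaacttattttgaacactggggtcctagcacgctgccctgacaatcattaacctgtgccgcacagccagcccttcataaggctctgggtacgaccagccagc
Irs1, distal copy: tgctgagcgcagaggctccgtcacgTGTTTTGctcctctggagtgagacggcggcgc
Irs1, proximal copy: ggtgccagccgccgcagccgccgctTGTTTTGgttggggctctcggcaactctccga
Irs2: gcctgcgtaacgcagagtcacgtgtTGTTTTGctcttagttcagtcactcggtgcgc

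TTCNNNGAA was found upstream of 2 Igfals start sites, in a gene that growth hormone is known to induce, and in 7.02% of all promoters. The copies began 236 and 58 bases before their start sites, within chr17:24877594-24877641 and chr17:24878148-24878206 of the forward strand. GTAAACA was found on the opposite strand 242 bases before the downstream of these starts, and in 3.16% of all promoters.
Igfals, upstream start: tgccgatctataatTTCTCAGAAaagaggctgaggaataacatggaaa
Igfals, downstream start: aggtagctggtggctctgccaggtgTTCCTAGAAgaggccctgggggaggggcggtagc
A further Igfals start site had none of the 3 motifs in its window, chr17:24878497-24878746. None was in the windows of Foxo1, Ghr, Igf1 or Igfbp2, which says only that these letters are not in those 250 bases. Insr and Socs2 had no entry in the promoter table.

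After GalNAc-siRnf10, 5 of the 10 members were higher and 0 were lower by edgeR's quasi-likelihood test at an adjusted p under 0.05. The genes that rose were Igfbp1, Socs2, Foxo1, Igf1 and Ghr. Over all tested genes 14% were called, 6.71% as higher and 7.28% as lower. Because the members were chosen with earlier results known, their share is only a description beside these. At an unadjusted p under 0.05, 6 members were higher and 2 were lower, and DESeq2 called 5 higher and 0 lower (Igfbp2 but not Ghr) while limma voom called 6 higher and 0 lower. For 7 of the 10 members every mouse of a group lay above every mouse of the other in normalized count, which held for 32.8% of all tested genes. The median log2 fold change of the members was 0.21, against 0.0022 over all tested genes. In bulk liver, fewer cells of a type and less RNA per cell cannot be told apart, and this holds for every value below.

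**Figure D1:**
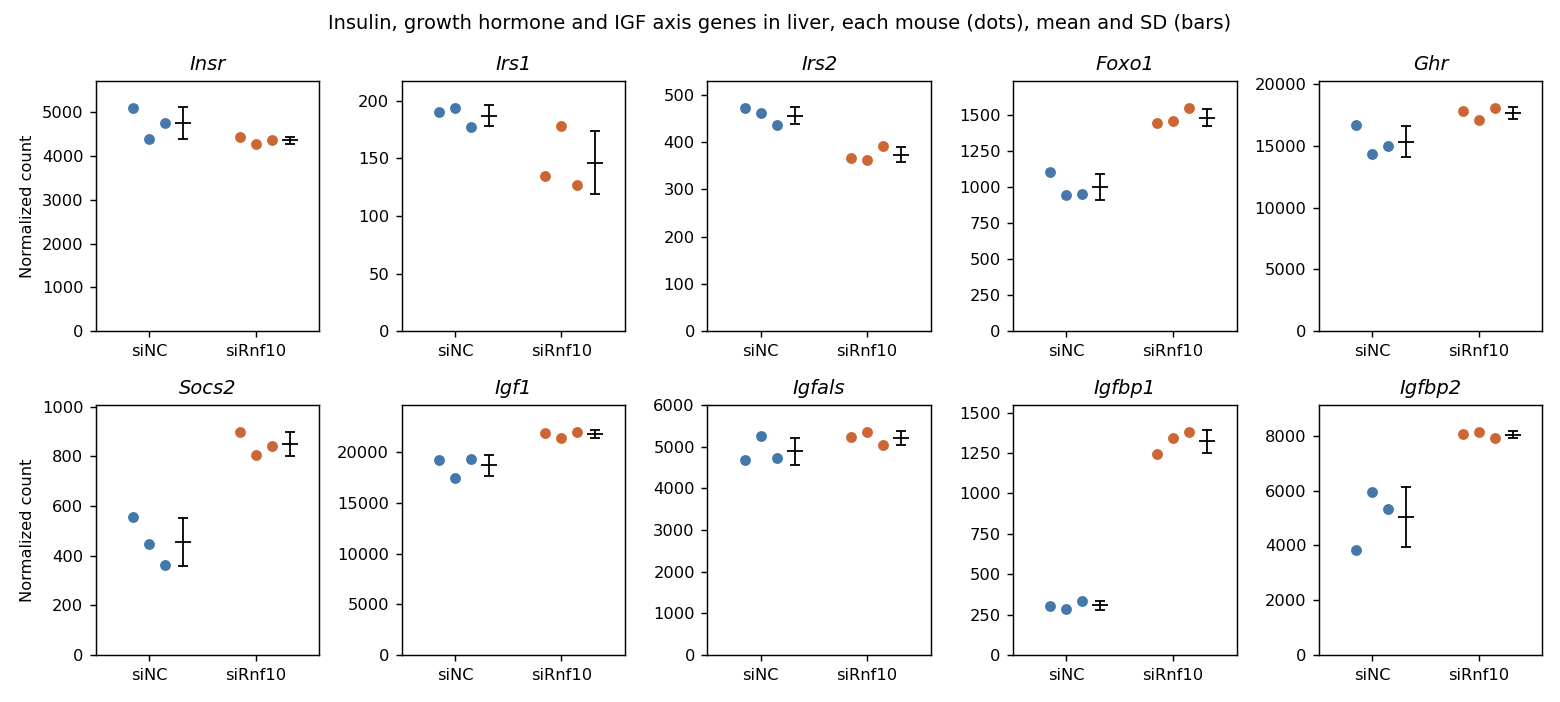
Normalized counts of the 10 members (vertical axes, from 0) in each GalNAc-siNC mouse (siNC, blue) and each GalNAc-siRnf10 mouse (siRnf10, orange), with the mean and SD of 3 mice in black. Igfbp1 lies between 282 and 332 in the controls and between 1244 and 1383 after GalNAc-siRnf10, whereas the dots of Insr, Irs1 and Igfals overlap between the groups.

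The largest change among the members was in a binding protein. Igfbp1 (ENSMUSG00000020429), on chr11:7197782-7202546, encodes the insulin-repressed carrier of IGF1. Its normalized counts, scaled by TMM to the mean library size, were 305, 282 and 332 in the GalNAc-siNC mice and 1244, 1340.5 and 1383 in the GalNAc-siRnf10 mice. Every treated mouse was far above every control. The means were 306 ± 25.2 and 1323 ± 71.1 (SD, n = 3 each), a rise of 4.32-fold or 2.11 on the log2 scale (95% interval 1.92 to 2.31; adjusted p = 6.46e-11, edgeR). Only 30 of the 14046 tested genes, which is 0.214%, had a larger absolute log2 fold change. With 3 mice against 3 an exact two-sided permutation test cannot give less than p = 0.1, which is what it gave for Igfbp1 and for each of the other members whose groups did not overlap.

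Igfbp2, on chr1:72824503-72852474, encodes the carrier with the highest mRNA level per kilobase among the members. In the controls its normalized counts were 3837, 5952 and 5328, and in the GalNAc-siRnf10 mice they were 8065, 8163 and 7915. The groups did not overlap, the treated mice lay close together (coefficient of variation 1.55%), and the controls were widely spread (21.6%). The log2 fold change was 0.68 with a 95% interval of 0.27 to 1.08, but its adjusted p was 0.0504 by edgeR, just outside the threshold. The call turned on settings and on the controls: without GalNAc-siNC mouse 1, the lowest control, the difference was 0.51 with an adjusted p of 1.38e-10. Without GalNAc-siNC mouse 2 it was 0.81 (adjusted p = 0.0350, edgeR), and without GalNAc-siNC mouse 3 it was 0.71 (0.0266). It was not called without GalNAc-siRnf10 mouse 1, 2 or 3 (0.67 to 0.69; adjusted p of 0.104, 0.113 and 0.0953) nor with RLE scaling (0.0510). DESeq2 gave the same difference of 0.68 with an adjusted p of 6.15e-07.

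Igfals, on chr17:24865997-24882010, encodes the acid-labile subunit that holds IGF1 and IGFBP3 in the large complex of blood. Its normalized counts were 4669, 5260.1 and 4719 in the controls and 5231, 5359 and 5036 after GalNAc-siRnf10. The groups overlapped. The log2 difference of 0.09 did not pass the test (95% interval -0.04 to 0.23; adjusted p = 0.381, edgeR). It was 0.20 when the counts were corrected for the GC content and length of each gene, with an adjusted p of 0.00655, so that the call for Igfals depended on this correction. Without GalNAc-siNC mouse 1 it was 0.06 (0.486).

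Of the other IGF system genes, 10 of 17 were tested and 2 were called, both higher. That is 20% of those tested, against 14% of all tested genes, and the median log2 fold change was 0.24. Igfbp3, the main carrier in blood, had normalized counts of 179, 128 and 130.4 in the controls and 324, 268 and 293 after GalNAc-siRnf10. The groups did not overlap, and Igfbp3 rose by 1.01 on the log2 scale (SE 0.15, adjusted p = 0.000171, edgeR). In liver Igfbp3 is known to be made mostly by cells other than hepatocytes, so the markers of those cells are given beside it. Of the sinusoidal endothelial markers 2 of 7 were higher (Clec4g and Lyve1), and their summed normalized count went from 2317 to 2348 in the controls to 2542 to 2661. Stab2, another endothelial marker, was lower in every treated mouse (582 to 615 against 696 to 721) with a difference of -0.26 that did not pass the test (adjusted p = 0.0544, edgeR), and limma voom called 1 marker of this list lower. Of the stellate cell markers 4 of 7 were higher (Reln, Colec11, Dcn and Ecm1), with sums of 3284 to 3397 and 4009 to 4228, while Lrat, Des and Hgf had overlapping groups and differences of -0.27, -0.20 and -0.03. None of the 6 Kupffer cell markers was called by edgeR, DESeq2 or limma voom (1 was lower at an unadjusted p under 0.05), and their sums overlapped, at 4245 to 4924 and 4576 to 4797. The part of these cells in the rise of Igfbp3 was not tested. Among other cells the liver could hold, 1 of 5 cholangiocyte markers, Spp1, was lower. The sums of the 5 were 2033 to 2073 and 1122 to 1154, mostly from Spp1, with means of 1836 and 982. Sox9 had a difference of -0.54 that did not pass the test (adjusted p = 0.0555, edgeR), while Epcam, Krt19 and Krt7 had overlapping groups. By limma voom 2 markers of this list were lower. Of 2 tested lymphocyte and neutrophil markers 1 was lower (S100a9). Cela1 was higher, while the other 5 pancreas and adipose markers had at most 2 counts in a library.

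Igf2bp3, which encodes an RNA-binding protein of the Igf2 mRNA, was the other IGF system gene called. It was low, at 16.5, 11.3 and 21.7 normalized counts in the controls and 49.7, 50.7 and 42.6 after GalNAc-siRnf10, and rose by 1.52 on the log2 scale (adjusted p = 0.00396, edgeR). Igf2 itself had 0 counts in every library. Igfbp4, the most abundant binding protein mRNA of the liver, had overlapping groups and a log2 difference of -0.06 (adjusted p = 0.548, edgeR).

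The makeup of the binding protein mRNA differed between the groups, which is given as a description without a test. The levels of Igfbp1 to Igfbp7, in CPM (counts scaled to library size) per kilobase of gene model, were summed in each mouse and the share of each was taken. Igfbp1 made up 1.53%, 1.13% and 1.46% of the sum in the controls and 4.92%, 5.27% and 5.36% after GalNAc-siRnf10. Igfbp2 made up 15.9%, 19.8% and 19.3% in the controls and 26.3%, 26.5% and 25.3% in the treated mice. The share of Igfbp4 was lower in every treated mouse, at 62.7% to 64.1% against 74.2% to 77.2%, while its own level overlapped, at 353 to 366 against 339 to 408 CPM per kilobase. The sum itself was 439, 550.1 and 504 in the controls and 559, 562 and 571 after GalNAc-siRnf10, with GalNAc-siNC mouse 1 the lowest.

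**Figure D2:**
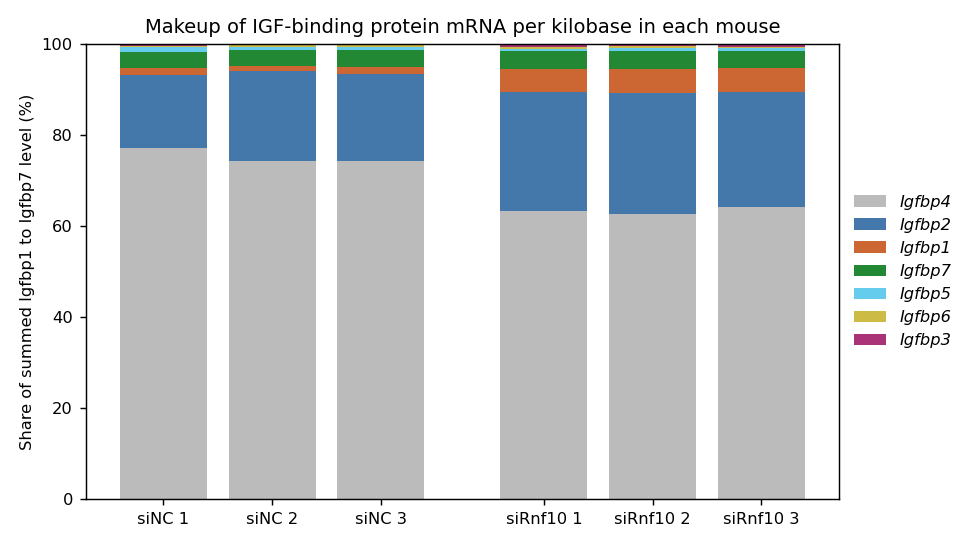
Share of each binding protein (vertical axis, %) in the summed Igfbp1 to Igfbp7 mRNA level, in CPM per kilobase, with 1 bar per mouse. The Igfbp1 segment (orange) takes 1.13% to 1.53% of the bar in the GalNAc-siNC mice (siNC) and 4.92% to 5.36% in the GalNAc-siRnf10 mice (siRnf10), and the Igfbp4 segment (grey) is shorter in each treated mouse.

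The differences of the hormone and its receptor were small. Igf1, on chr10:87858265-87937042, encodes the liver's main endocrine product under growth hormone. It was abundant, with normalized counts of 19271, 17501 and 19376 in the controls and 21944, 21369 and 22040.3 after GalNAc-siRnf10. The groups did not overlap, and Igf1 rose by 0.22 on the log2 scale or 1.16-fold (95% interval 0.10 to 0.34; adjusted p = 0.0126, edgeR). The size was steady when any mouse was left out (0.17 to 0.24). The call was lost when GalNAc-siRnf10 mouse 1, 2 or 3 was left out, with adjusted p-values of 0.0926, 0.0611 and 0.0964 by edgeR on the remaining 5 libraries.

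Ghr, on chr15:3317760-3583492, encodes the growth hormone receptor. Its normalized counts were 16738, 14325 and 15012 in the GalNAc-siNC mice, and 17792, 17128 and 18088 in the GalNAc-siRnf10 mice. The highest control lay just under the lowest treated mouse. Ghr rose by 0.20 on the log2 scale, which is 1.15-fold (95% interval 0.07 to 0.33; adjusted p = 0.0351, edgeR). This call was the least firm of the 5: the adjusted p was 0.0642 with DESeq2 and 0.0536 with upper quartile scaling, and it was 0.0955 to 0.184 when GalNAc-siNC mouse 2 or 3 or any GalNAc-siRnf10 mouse was left out, with differences of 0.15 to 0.22. Without GalNAc-siNC mouse 1, the highest control, the difference was 0.27 and the adjusted p was 8.26e-06.

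Socs2, on chr10:95385362-95417180, encodes a STAT5-induced inhibitor that ends signalling from the growth hormone receptor. The controls had normalized counts of 555, 447 and 361, and the GalNAc-siRnf10 mice had 899.7, 806 and 840.2. All treated mice lay above all controls, among which GalNAc-siNC mouse 1 was the highest. The means were 454 ± 97.6 and 849 ± 47.4 (SD, n = 3 each), a rise of 1.86-fold or 0.90 on the log2 scale (95% interval 0.62 to 1.17; adjusted p = 0.000272, edgeR). When each mouse was left out in turn the difference stayed between 0.75 and 1.07 and the adjusted p was at most 0.0142. Of the tested genes, 3.51% had a larger absolute log2 fold change than Socs2.

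Other inhibitors and transcription factors of the same receptor pathway were lower. Of 16 genes of growth hormone signalling, a list without the members, all were tested, 1 was higher and 5 were lower. That is 37.5%, against 14% of all tested genes, and the median log2 fold change was -0.19. The gene lists, like the members, were chosen with earlier results known, so their shares are only a description. Cish, like Socs2 a STAT5-induced inhibitor, had normalized counts of 1055, 1099 and 1017 in the controls and 519, 459.9 and 467.5 after GalNAc-siRnf10. It fell by 1.13 on the log2 scale (SE 0.0864, adjusted p = 6.78e-08, edgeR), with no overlap between the groups. Cish thus differed from Socs2 in direction in the same libraries. Socs3, an inhibitor that is also induced by STAT3 downstream of interleukin-6, went from 769.5, 1225 and 917 to 375, 363 and 384. It fell by 1.37 (SE 0.15, adjusted p = 0.000134, edgeR), and the lowest control was far above the highest treated mouse.

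The transcription factors themselves fell too. Stat5a was at 519, 643 and 519 in the controls and at 347, 357 and 319.5 after GalNAc-siRnf10, a fall of 0.71 on the log2 scale (adjusted p = 0.000287, edgeR). Stat5b, the form that serves growth hormone most in liver, was at 1673, 1734 and 1675 and then at 1334, 1368 and 1273, a fall of 0.35 (0.00214). Stat3 fell by 0.53 (adjusted p = 1.42e-05, edgeR), from 4891 to 5511 in the controls to 3549 to 3606. None of these 3 genes had overlapping groups. Jak2, the kinase bound to GHR, had overlapping groups and a difference of -0.18 (95% interval -0.44 to 0.08; adjusted p = 0.382, edgeR). The list gene that rose was Prlr, the receptor of prolactin, at 2281 to 2849 in the controls and 2910.5 to 3175 in the treated mice, by 0.24 (adjusted p = 0.0487, edgeR). DESeq2 did not call it, with an adjusted p of 0.0613, and the call was lost without GalNAc-siNC mouse 2 or 3 or any GalNAc-siRnf10 mouse (differences of 0.17 to 0.27, adjusted p of 0.109 to 0.241). Without GalNAc-siNC mouse 1, the highest control, the difference of Prlr was 0.33 (adjusted p = 5.42e-05, edgeR).

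**Figure D3:**
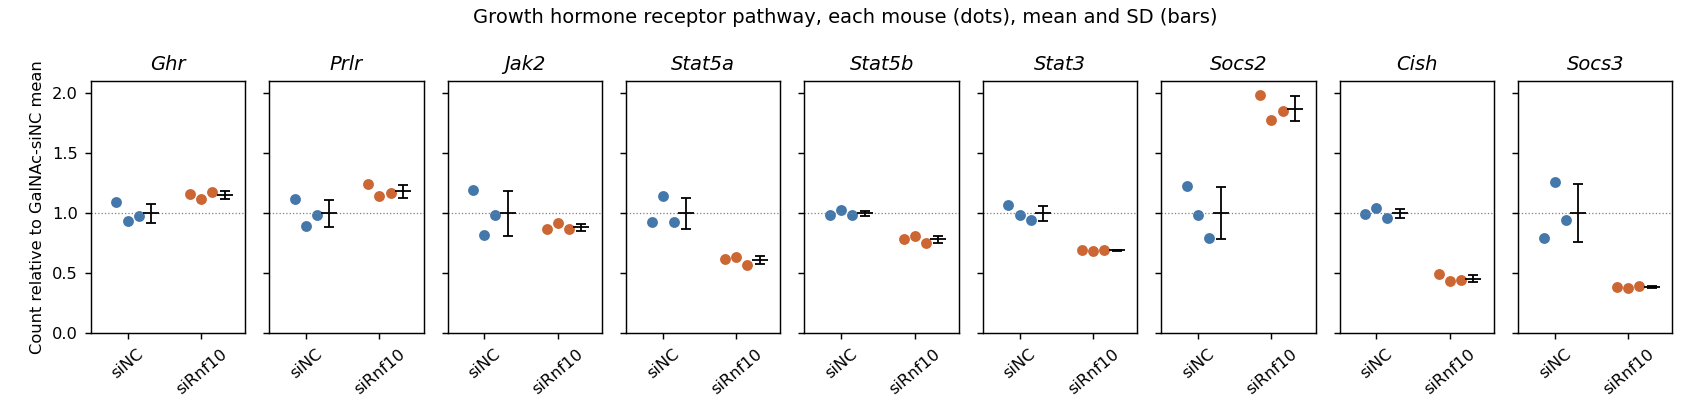
Counts of genes of the growth hormone receptor pathway in each mouse, divided by the mean of the GalNAc-siNC group (vertical axis, ratio from 0), with the mean and SD of 3 mice in black; siNC stands for GalNAc-siNC (blue) and siRnf10 for GalNAc-siRnf10 (orange). Socs2 is above all controls in every treated mouse (1.86-fold on average), while Cish, Socs3, Stat5a, Stat5b and Stat3 are below them and Jak2 overlaps.

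Liver genes whose level depends on the pattern of growth hormone pulses were described by a male-biased and a female-biased list. Of the 12 male-biased genes, all tested, 4 were higher and 1 was lower. That is 41.7%, against 14% of all tested genes, and the median log2 fold change was -0.03. Gstp1, a glutathione transferase, rose most, from 29110, 40929.6 and 42625 to 68263, 67674 and 66009 normalized counts (0.84, adjusted p = 0.0229, edgeR). Cyp4a12a rose by 0.48 (adjusted p = 4.93e-05, edgeR), and Cyp4a12b and Cyp2d9 rose by 0.27 and 0.25 (0.0297 and 0.00220). Cyp7b1, which hydroxylates oxysterols, was called as lower, with a difference of -0.19 (adjusted p = 0.0310, edgeR), but not by DESeq2 (0.0603), and with the GC and length correction the difference was -0.34. With that correction Cyp4a12b was not called (0.18, adjusted p = 0.0815). Hsd3b5, a widely used marker of the male pattern, had overlapping groups and a difference of -0.02. The Cyp4a12, Cyp2d and Gstp genes have close copies that can share reads, so their values are uncertain. Gstp1 was not called without GalNAc-siNC mouse 2 (0.91, adjusted p = 0.0892, edgeR) or GalNAc-siRnf10 mouse 1 or 2 (0.83 and 0.84; 0.0527 and 0.0517), and Cyp4a12b and Cyp7b1 lost their calls in 5 and 4 of 6 such fits, with adjusted p-values of up to 0.168 and 0.172. Leaving out GalNAc-siNC mouse 1, the lowest control for Gstp1, gave 0.69 for Gstp1 (adjusted p = 2.17e-17, edgeR) and 0.35 for Cyp4a12b (8.12e-05). The number of male-biased genes called went to 8 without GalNAc-siNC mouse 1, to 3 without GalNAc-siNC mouse 2 or 3 or GalNAc-siRnf10 mouse 3, and to 2 without GalNAc-siRnf10 mouse 1 or 2.

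Of the 12 female-biased genes only 4 had enough counts to be tested in these male livers, and the other 8 had at most 8 counts in any library. Among the 4 tested, 1 was higher and 1 was lower (50%, against 14% of all tested genes). Acot3, an acyl-CoA thioesterase, rose from 20.0, 21.7 and 12.8 to 72.3, 105 and 104 normalized counts, by 2.36 on the log2 scale (adjusted p = 1.15e-05, edgeR). Acot3 and Cyp2c69 have close copies too, and Acot3 is also a target of the fatty acid receptor PPAR-alpha. Cyp2c69 was called as lower, with a difference of -0.38 (adjusted p = 0.0422, edgeR). It was not called by DESeq2 (0.0563), nor without GalNAc-siNC mouse 2 or 3 or any GalNAc-siRnf10 mouse (0.0568 to 0.178), where the differences were between -0.43 and -0.33. With the GC and length correction the difference was -0.58. Cyp17a1 (-0.13) and Cux2 (1.13, at 5.93 to 18.3 normalized counts in the controls and 15.8 to 41.1 in the treated mice) did not pass the test.

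Among the insulin receptor and its adaptors no member was called. Insr, on chr8:3122061-3279617, encodes the receptor that starts insulin signalling. Its normalized counts were 5105, 4383 and 4769 in the controls and 4436, 4281 and 4363 after GalNAc-siRnf10. The groups overlapped, and the log2 difference was -0.12 (95% interval -0.26 to 0.01; adjusted p = 0.239, edgeR). Without GalNAc-siNC mouse 1, the highest control, it was -0.07 (0.382).

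Irs2, on chr8:10984681-11008458, encodes an adaptor that FOXO1 induces in the fasted liver. In the controls it was at 473, 461 and 436 normalized counts, and in the treated mice at 366, 362 and 393. All treated mice lay under all controls. The log2 difference of -0.29 had a 95% interval of -0.50 to -0.08 and did not pass the adjusted test (adjusted p = 0.0682, edgeR). With the correction for GC content and length it was -0.15 (0.305). Irs1, on chr1:82233101-82291416, was the least expressed member, at 191, 194 and 177 in the controls and 134.5, 178 and 127 after GalNAc-siRnf10. GalNAc-siRnf10 mouse 2 lay inside the range of the controls. The difference was -0.35 (95% interval -0.68 to -0.02; adjusted p = 0.154, edgeR). Irs1, Irs2 and Foxo1 each overlap an annotated gene on the opposite strand, but those genes had at most 2 counts in any library.

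Foxo1, on chr3:52268336-52353221, encodes the factor that insulin signalling restrains. Its normalized counts were 1106, 944 and 952.5 in the GalNAc-siNC mice and 1445, 1457 and 1552 in the GalNAc-siRnf10 mice. Every treated mouse was above every control. The means were 1001 ± 91.0 and 1484 ± 58.5 (SD, n = 3 each), which is a rise of 1.48-fold or 0.57 on the log2 scale (95% interval 0.40 to 0.74; adjusted p = 0.00011, edgeR). With each mouse left out in turn Foxo1 rose by 0.53 to 0.65, with an adjusted p of at most 0.00305. These are mRNA levels, and neither FOXO1 protein nor its place in the cell was measured.

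**Figure D4:**
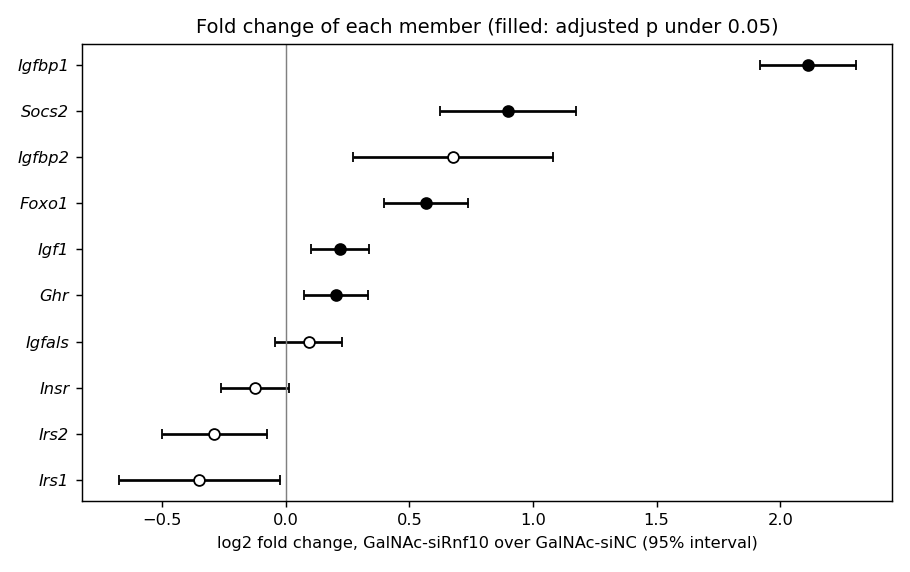
Log2 fold change of each member, GalNAc-siRnf10 over GalNAc-siNC (horizontal axis), with 95% intervals from edgeR; filled circles passed an adjusted p under 0.05. Igfbp1 stands at 2.11, far from the other members, which lie between -0.35 (Irs1) and 0.90 (Socs2), and the open circle of Igfbp2 at 0.68 has the widest interval.

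Of 24 other genes of insulin signalling, from the adaptors to mTOR and the FOXO factors, 23 were tested, 1 was higher and 1 was lower (8.70%, against 14% of all tested genes), with a median log2 fold change of -0.07. Foxo3, a FOXO factor with targets in common with FOXO1, rose from 1384, 1476 and 1332 to 1726, 1827 and 1786 normalized counts, by 0.35 (adjusted p = 0.00279, edgeR). Mtor, the kinase at the centre of growth signalling, had a difference of -0.22 and was called (adjusted p = 0.0452, edgeR), but not by DESeq2 (0.0608) nor without GalNAc-siNC mouse 2 (0.0696) or any GalNAc-siRnf10 mouse (0.154 to 0.173), where the differences were -0.22 to -0.21. With the GC and length correction it was -0.10. Without GalNAc-siNC mouse 1 the number of genes of this list called was 6, and without GalNAc-siNC mouse 2 or any GalNAc-siRnf10 mouse it was 1.

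Of 12 inhibitors of insulin signalling, all tested, 0 were higher and 2 were lower by edgeR. That is 16.7%, against 14% of all tested genes, and the median log2 fold change was -0.22. No inhibitor was higher by DESeq2 or limma voom either, and 1 was higher at an unadjusted p under 0.05. Grb14, an adaptor that blocks the receptor's kinase, had normalized counts of 1982, 1748 and 1788 in the controls and 1521, 1617 and 1502 after GalNAc-siRnf10. It fell by 0.25 on the log2 scale (adjusted p = 0.0305, edgeR). Ptpn1, the phosphatase PTP1B that acts on the insulin receptor, also had a difference of -0.25 (adjusted p = 0.0424, edgeR) but was not called by DESeq2 (0.0561), and it was -0.13 with the GC and length correction. Without any 1 of the GalNAc-siRnf10 mice the adjusted p was 0.0738 to 0.161 for Grb14 (differences of -0.28 to -0.23), and when a mouse other than GalNAc-siNC mouse 1 was left out it was 0.0522 to 0.165 for Ptpn1 (-0.27 to -0.22). The number of inhibitors called was 5 without GalNAc-siNC mouse 1, 1 without GalNAc-siNC mouse 2 or 3, and 0 without any 1 of the GalNAc-siRnf10 mice.

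Of 12 genes regulated by insulin or FOXO factors in liver, all tested, 5 were higher and 1 was lower. That is 50%, against 14% of all tested genes, and the median log2 fold change was 0.24. Pck1 and G6pc, the enzymes that commit carbon to gluconeogenesis and release glucose, rose by 0.48 and 0.59 (adjusted p = 6.89e-05 and 1.90e-06, edgeR). G6pc was at 7064, 6242 and 6541 in the controls and at 9967, 10046 and 9941 after GalNAc-siRnf10, without overlap. Tat, tyrosine aminotransferase, rose most, from 24332, 24458 and 22808 to 63753, 63784 and 62604 (1.41, adjusted p = 6.13e-12, edgeR). Klf15, a factor of amino acid use in fasting, rose by 0.78 (9.60e-07), and Angptl4, an inhibitor of lipoprotein lipase, rose by 0.43 (0.000400). Gadd45a, a growth arrest gene and FOXO target, moved the other way and fell by 1.06 (adjusted p = 0.00049, edgeR).

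The other 6 genes of the list did not pass the test. Srebf1, the insulin-induced factor of lipid synthesis, had a difference of -0.18 (95% interval -0.33 to -0.04; adjusted p = 0.0939, edgeR). Ppargc1a, a FOXO1 coactivator, differed by 0.13 (95% interval -0.17 to 0.43; adjusted p = 0.615, edgeR). Pdk4, Sesn1 and Sesn3 had differences of 0.29, -0.21 and -0.21.

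Several of these genes are known to follow feeding, glucocorticoids and the time of day, so the core clock genes are given beside them. Of 14 clock genes 13 were tested, 5 were higher and 1 was lower. That is 46.2% of those tested, against 14% of all tested genes, and the median log2 fold change was 0.19. Per1 rose from 332, 369 and 352 to 1226, 1102 and 1183 normalized counts, by 1.74 (adjusted p = 6.64e-10, edgeR). Ciart, Cry1, Per2 and Per3 rose by 1.29, 0.75, 0.42 and 0.40, and Nr1d1 fell by 0.68 (adjusted p = 1.78e-05, edgeR). The other 7 tested clock genes were not called. Arntl, Clock, Cry2, Dbp and Hlf had overlapping groups and differences of -0.43, -0.02, -0.04, 0.25 and -0.02. Nr1d2 and Tef were higher in every treated mouse, with differences of 0.19 and 0.12. The part of collection time or feeding in the differences of Igfbp1, Foxo1, Tat, Pck1 and G6pc was not tested.

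**Figure D5:**
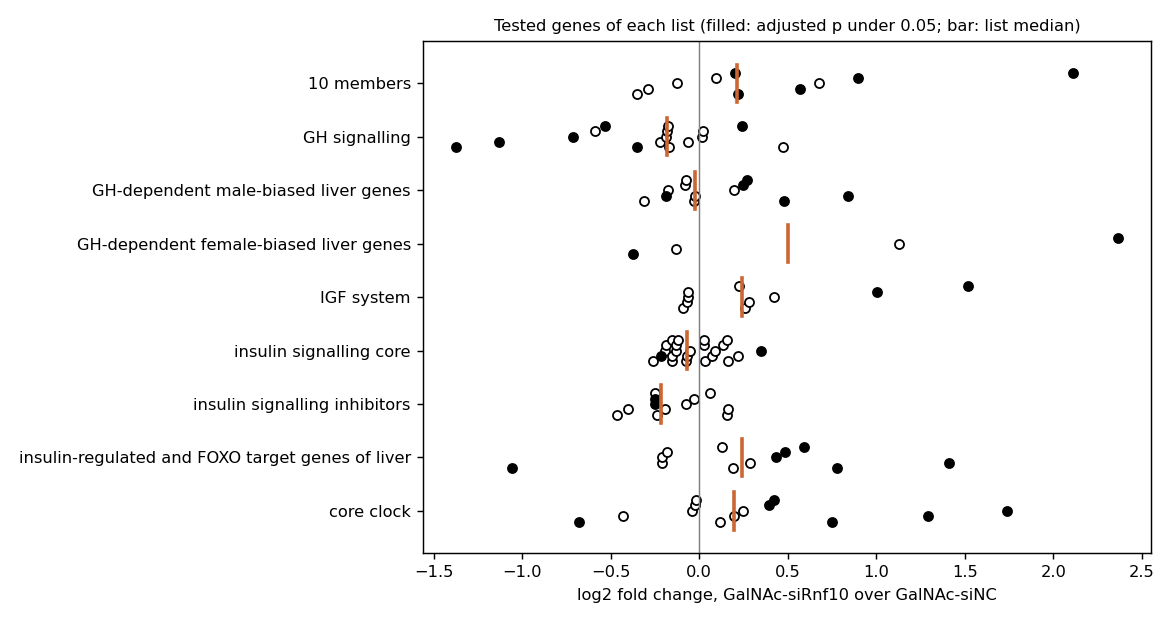
Log2 fold change, GalNAc-siRnf10 over GalNAc-siNC (horizontal axis), of every tested gene of the members and of each pathway list; filled circles passed an adjusted p under 0.05 and orange bars mark list medians. The medians run from -0.22 for the insulin signalling inhibitors to 0.24 for the IGF system and the insulin-regulated genes, with the female-biased list (4 tested genes) at 0.50.

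Levels were compared between members per kilobase of gene model, in CPM per kilobase. In the GalNAc-siNC mice the order was Igfbp2 (92.0 ± 19.8), Igf1 (63.7 ± 3.59), Ghr (57.2 ± 4.63), Igfals (52.0 ± 3.49), Insr (11.7 ± 0.886), Igfbp1 (6.77 ± 0.558), Foxo1 (3.89 ± 0.354), Irs2 (2.43 ± 0.101), Socs2 (1.61 ± 0.345) and Irs1 (0.690 ± 0.0333), each as mean and SD of 3 mice. The ranges of Igf1 and Ghr and those of Ghr and Igfals overlapped, and all other neighbours were separate. In the GalNAc-siRnf10 mice no neighbours overlapped. There Igfbp1, at 29.2 ± 1.57, stood above Insr (10.7 ± 0.191), and Socs2, at 3.00 ± 0.168, stood above Irs2 (1.99 ± 0.0888). Igfbp2 led in both groups, at 147 ± 2.28 after GalNAc-siRnf10.

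The genes most like Igfbp1 over the 6 mice were sought among 10935 tested genes outside the members whose normalized count averaged 50 or more, by Pearson's r of log2 CPM. They were Gpat4, a glycerol-3-phosphate acyltransferase, with r = 0.9993, Tdo2, the first enzyme of tryptophan breakdown, with r = 0.9991, and Ugt2b5, a glucuronosyltransferase with close copies, with r = 0.9987. Their own log2 differences between the groups were 0.40, 0.88 and 0.67, all smaller than that of Igfbp1. The points share the same 6 libraries and fall into 2 groups, so these r mostly reflect the difference between the groups and are given as a description.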

How the data were processed

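The authors prepared stranded mRNA libraries from liver RNA, sequenced paired-end reads and mapped them to GRCm38 with HISAT2, per the labels and the submitters' processing notes, which also name DESeq2. They deposited raw read counts per Ensembl gene, without normalization, beside the length of each gene model; the counting tool, annotation release and strand setting are not given in the sources used here. Each sample's group was taken from its label.

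From the deposited counts, the groups of 3 mice were compared in R 4.3.3 with edgeR 4.0.16 (filterByExpr, TMM, robust quasi-likelihood F-test, treatment as the only term), with Benjamini-Hochberg adjustment over 14046 genes and a call at an adjusted p under 0.05. Biological variation was 9.28% (coefficient from the common dispersion). Replicates were separate mice. Normalized counts are counts scaled by TMM library size to the mean library. Levels per kilobase used the deposited lengths. Symbols and coordinates came from GENCODE M21 (GRCm38), where 55141 of 55487 identifiers had a symbol, and promoters from RefSeq (GRCm38.p6), where 8 of the 10 members had an entry. The fit was tested on simulated counts.

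The members and the gene lists were chosen with earlier results of these data known. Named were the members and Rnf10, up to 6 called genes of each list with the largest absolute log2 fold change, and the 3 genes most like the member with the smallest p; other list genes and all markers were named after their values were seen. The alternatives were RLE and upper quartile scaling, DESeq2 1.42.0, limma 3.58.1 voom (quality weights), a filter of 10 counts in each mouse or none, a block for the replicate number, a spline correction for GC content and length (5 degrees of freedom each), that correction with the block, an adjusted p under 0.01, and leaving out each mouse. Motifs were searched in Python 3.11.15 and figures drawn with matplotlib 3.10.9.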

Additional observations from a re-analysis of the deposited data

How the results depend on the processing

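No alternative reversed the direction of a member, of Rnf10 or of a named list gene. Igfbp1, Foxo1, Socs2 and Rnf10 kept their calls at an adjusted p under 0.05 in all fits. Ghr was not called with upper quartile scaling (0.19) or DESeq2 (0.20), and Igfals was called only with the GC and length correction, alone (0.20) or with the replicate block (0.20). Igfbp2 was called at log2 differences of 0.67 (upper quartile scaling, no filter and at least 10 counts in every mouse alike), 0.68 (DESeq2), 0.63 (limma voom), 0.70 (replicate block), and 0.68 (GC and length correction, with and without the block). With each mouse left out the differences ranged from 0.15 to 0.27 for Ghr, 0.17 to 0.24 for Igf1 and 0.51 to 0.81 for Igfbp2, and the number of members called from 3 to 6. The number of genes called then ranged from 1053 to 2864, and in the lists from 2 to 8 (male-biased), 1 to 3 (female-biased), 1 to 6 (insulin signalling core) and 0 to 5 (inhibitors). At an adjusted p under 0.01, 1042 genes and 3 members were called, with 2 male-biased, 1 female-biased, 1 insulin signalling core and 0 inhibitor genes. The GC and length correction, with or without the block, called 8 male-biased and 4 insulin signalling core genes. No filter called 1 female-biased and 1 core gene, and DESeq2 and the block each called 1 female-biased gene, 1 core gene and 1 inhibitor. The cause of these changes was not tested, beyond the smaller number of mice where 1 was left out.

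The replicate numbers name different animals. Deviations of same-numbered mice from their group means correlated by -0.001, 0.027 and -0.034, so the numbers were not taken as a pairing. With the replicate block 1816 genes were called, against 1965 without it. Under the other scalings the median log2 fold change of all genes moved by less than 0.1. Depth was lowest for Irs1, with 119 to 219 counts in a library.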
